A study of Mus musculus with 67 samples.

Results

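Sorted microglia were set against anti-HA ribosome pull-downs from the brains of PBS-injected mice, with 3 libraries of each kind. The 6 libraries are those whose labels give PBS treatment with either cell sorting or HA immunoprecipitation, out of 67 libraries in the series. Of 24421 genes in the count table, 11444 passed the count filter and were tested, and the results are about these genes. The study compared ways of profiling microglia, the resident macrophages of the brain, either by dissociating the brain and sorting the cells or by pulling tagged ribosomes out of brain homogenate. It comprised 3 experiments, of which the LPS experiment held these libraries. A value is a read count per gene scaled to counts per 1000000 reads (CPM) with TMM-normalised library sizes, and a log2 fold change is sorted over pull-down, so a positive value means higher in sorted cells. A gene was called at an edgeR quasi-likelihood adjusted p (Benjamini-Hochberg) under 0.05.

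The sorted libraries were RNA of cells gated as GR1 negative, CD45 intermediate and CD11b positive. The pull-down libraries were RNA recovered with an anti-HA antibody from frozen and homogenised brain, with no dissociation step in the described protocol. Both came from C57BL/6J mice of the genotype CX3CR1CreER/WT RLP22HA/HA, given 4 oral doses of 5 mg tamoxifen on alternate days at an age of 4 to 6 weeks, and injected with PBS as the control for LPS. Further libraries from PBS-injected mice of the same genotype served as context: 3 from sorted cells that then went through the HA pull-down, and 3 mock pull-downs with a mouse IgG. The submitters state that sorting and pull-down used the same animals. Their protocols describe an enzymatic digest of 20 min at 37 °C and a variant without it, and do not say which the LPS experiment used. Age at sampling and sex are not given in the sources used here. The Cre is driven from the Cx3cr1 locus, so Cx3cr1 is heterozygous in these mice, and tagging can reach other Cx3cr1-expressing macrophages. The gene counts do not separate tagged from untagged Rpl22, so tagging itself cannot be checked; Rpl22 had 71.7 ± 17.8 CPM in sorted microglia and 148 ± 17.8 CPM in pull-downs (SD, n = 3 each).

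Ribosome pull-down captures transcripts bound to tagged ribosomes at the moment of lysis, while RNA of a sorted cell also holds nuclear transcripts and whatever the cell transcribed during isolation. Pull-down from a whole tissue also carries untagged RNA that sticks to the beads, for which the IgG libraries are the control. The sample records give 125 µg of antibody for HA pull-downs and 1 µg for IgG, so the control is not matched in antibody amount. Microglia are recognised by receptors such as P2RY12, TMEM119 and CX3CR1, whereas macrophages of the meninges and vessels carry CD163, LYVE1 and MRC1.

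Total counts were 668194 to 1020518 in the sorted libraries, 288090 to 669508 in sorted-then-pull-down libraries, 1425412 to 1636479 in pull-downs and 824229 to 1183677 in IgG libraries, so low genes are less certain in sorted cells. Cst3, the cystatin C gene, averaged 32508 ± 2730 CPM in sorted microglia and 34303 ± 3688 CPM in pull-downs. All 30 genes of a microglial list were measured, and their summed level was 89298 to 90788 CPM in sorted microglia, 82498 to 89635 CPM in pull-downs and 2308 to 3028 CPM in IgG libraries. With TMM, both preparations therefore carried the labelled cell type's markers at a similar sum. The TMM factors of library size were 1.07 to 1.08 in sorted libraries and 0.92 to 0.94 in pull-downs. Total-count scaling therefore sets the sorted sums further above the pull-down sums. In bulk RNA, fewer cells of a type and less RNA per cell cannot be told apart. The labels do not tie a library number to a named animal, so p-values measure a spread between libraries. That spread was estimated over all 28 libraries of the LPS experiment. Counting intervals and floors cover counting error only.

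Of the 11444 genes, 8226 (71.9%) differed between sorted microglia and pull-downs. In sorted cells 3798 (33.2%) were higher and 4428 (38.7%) were lower, and the median log2 fold change over all tested genes was -0.15. Sorted libraries lay wholly above pull-downs for 34.7% of all tested genes and wholly below for 41.3%, and the groups did not overlap for 7970 of the 8226 called genes. A test against a 2-fold change called 2190 genes higher (19.1%) and 2687 lower (23.5%). The balance of directions depends on scaling: with total-count scaling the median became 0.063 and 52.4% of calls were higher, against 46.2% with TMM. The named lists below are read against the 33.2% and 38.7% backgrounds.

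The microglial list split. Of its 30 genes, 14 rose in sorted cells, 6 fell and 10 were not called, with a median log2 fold change of 0.35. Dropping the count filter turned this list median to -0.14, while the median over all genes moved from -0.15 to -0.48. The members that rose most were surface receptors. P2ry12, the purinergic receptor of surveying microglia, had 4946, 5104 and 4282 CPM in sorted microglia, against 331, 266 and 273 CPM in pull-downs (log2 fold change 4.04 ± 0.21 SE, edgeR adjusted p = 2.6e-25). Gpr34, a lysophosphatidylserine receptor, had 1000, 999 and 891 CPM in sorted cells and 37.3, 23.0 and 54.3 CPM in pull-downs (4.67 ± 0.22, adjusted p = 7.3e-28). Neither gene's libraries overlapped. P2ry13, a related purinergic receptor, had a log2 fold change of 3.02 ± 0.20, and Mertk, a receptor kinase for engulfment, had 4.41 ± 0.34.

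The fractalkine receptor Cx3cr1 had 3177, 3260 and 2812 CPM in sorted microglia and 1082, 894 and 985 CPM in pull-downs (log2 fold change 1.64 ± 0.17). The identity factor Sall1 also rose, by 1.91 ± 0.18, and the lectin Siglech by 2.29 ± 0.17. Their sorted and pull-down libraries stood apart. In contrast, C1qa, a chain of complement C1q, had 8530, 8503 and 9466 CPM in sorted microglia and 17659, 16801 and 19415 CPM in pull-downs (-1.02 ± 0.21, edgeR adjusted p = 1.6e-05). Itgb5, an integrin subunit, was the lowest of the list at -1.51 ± 0.19. Tmem119 had 3102, 3793 and 4124 CPM in sorted cells and 4172, 4324 and 4843 CPM in pull-downs, a log2 difference of -0.28 ± 0.20 that was not called (adjusted p = 0.21); thinning, fitting only these groups and dropping the count filter each called it lower. Csf1r, the receptor for the survival factor CSF1, was also not called at 0.37 ± 0.18 (adjusted p = 0.061); total-count scaling, thinning to equal depth, fitting only these groups and DESeq2 each called it higher, while dropping the count filter gave -0.12.

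**Figure D1:**
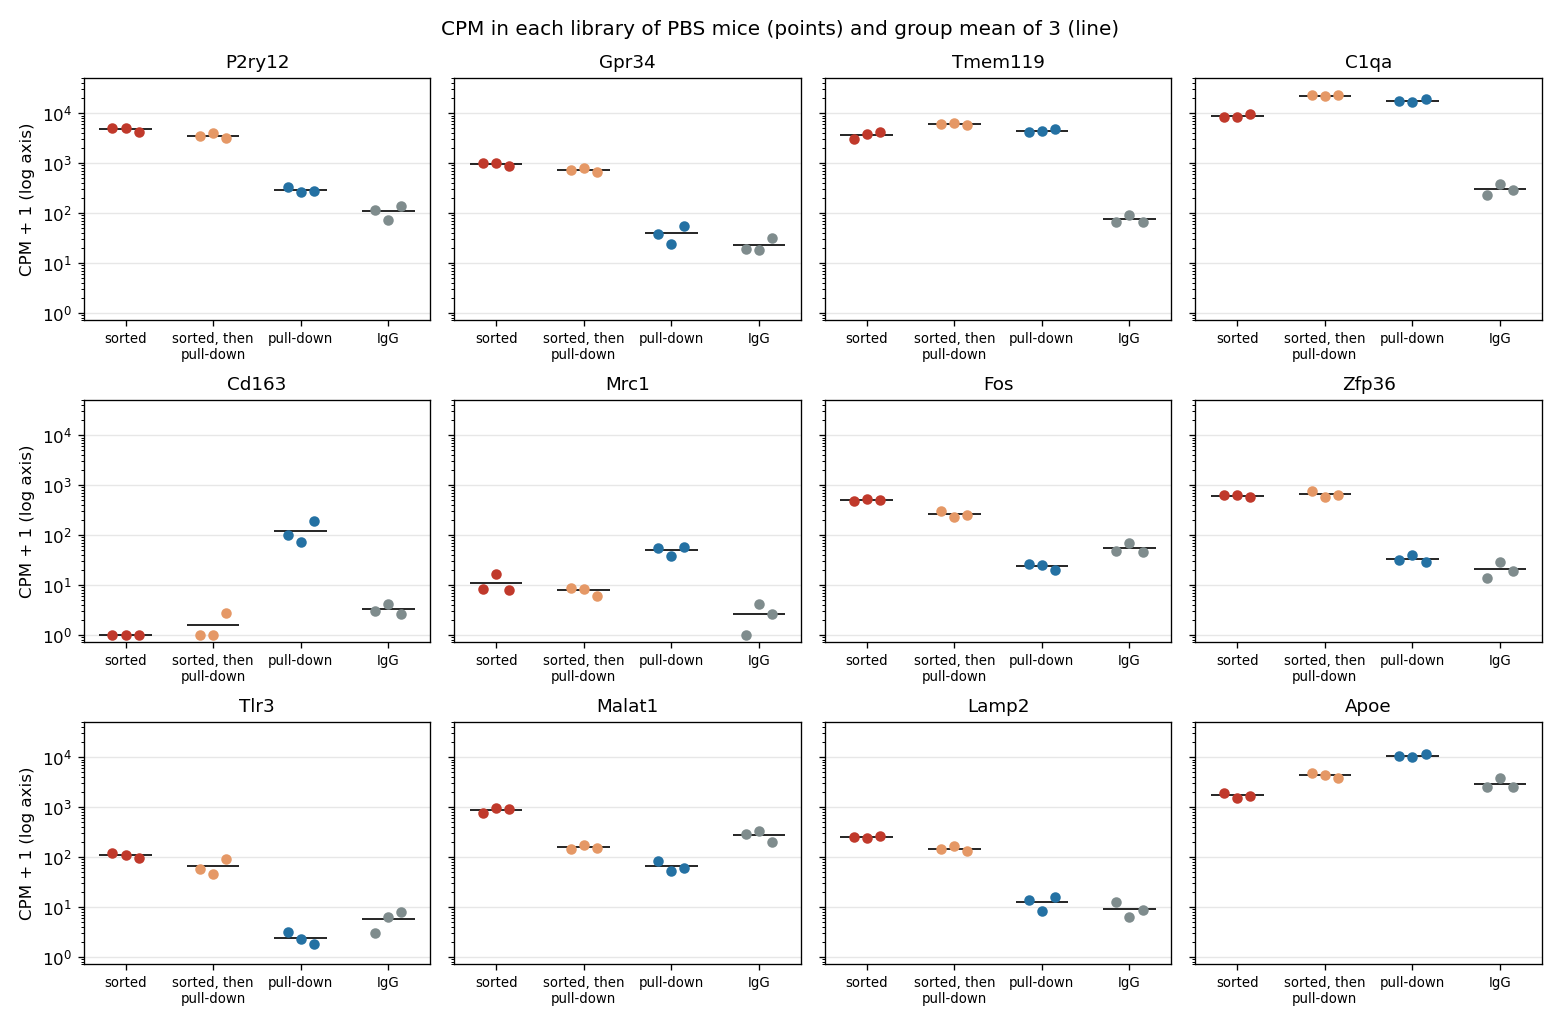
CPM plus 1 on a log axis for 12 genes, each library a point and each line the mean of 3, for sorted, sorted-then-pull-down, pull-down and IgG libraries of PBS mice. P2ry12, Gpr34, Fos, Zfp36, Tlr3, Malat1 and Lamp2 sit higher in sorted than in pull-down libraries, while Cd163, Mrc1, C1qa and Apoe sit lower.

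Libraries from sorted cells that then went through the pull-down place these differences, with the caution that these comparisons share libraries with the main comparison. P2ry12 averaged 4777 CPM in sorted, 3576 CPM in sorted-then-pull-down and 290 CPM in pull-down libraries. Gpr34 averaged 964, 720 and 38.2 CPM in the same 3 groups. So P2ry12 and Gpr34 stayed high when sorted cells were pulled down. The log2 fold change of sorted-then-pull-down over pull-down was 3.62 for P2ry12 (adjusted p = 1.4e-22), and that of sorted over sorted-then-pull-down was 0.42 (adjusted p = 0.079).

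Over the microglial list, sorted-then-pull-down libraries had 23 genes higher and 2 lower than pull-downs, where 24.7% of all genes were higher and 29% lower. Sorted libraries had 5 list genes higher and 16 lower than sorted-then-pull-down libraries, where 15.2% of all genes were higher and 16.6% lower. This balance depends on scaling: 47.7% of calls over all genes were higher with TMM and 68.5% with total-count scaling. The summed list was 160278 to 174217 CPM in sorted-then-pull-down libraries, above sorted and pull-down libraries alike. Pull-downs were higher than IgG for all 30 genes, where 33% of all genes were. The balance of pull-down against IgG calls also depends on scaling. With TMM 50.8% of them were higher, with total-count scaling 35.2% and with DESeq2 size factors 32.2%.

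**Figure D2:**
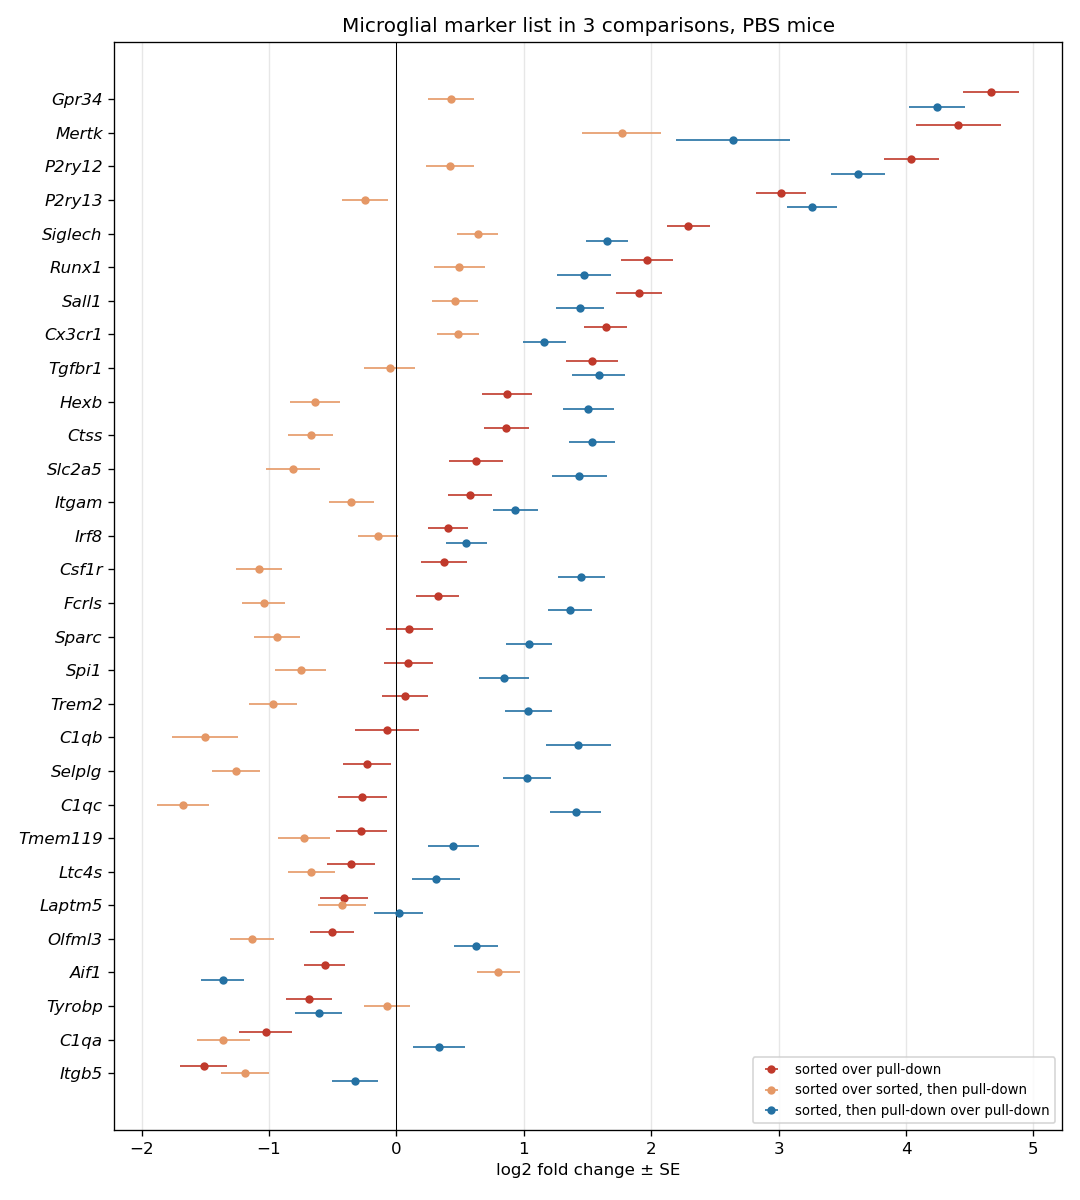
Log2 fold change ± SE (horizontal axis) of the 30 microglial list genes (rows) for sorted over pull-down, sorted over sorted-then-pull-down, and sorted-then-pull-down over pull-down, PBS mice. For P2ry12 and Gpr34 the last 2 comparisons show a small first step (0.42 and 0.43) and a large second step (3.62 and 4.24).

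Genes of macrophages at the brain borders were low or absent in sorted cells. Of 12 tested list members, 11 fell and 0 rose, with a median log2 fold change of -5.94, or -5.11 with the 4 members at 0 reads in sorted cells placed at their bound. Cd163, a haemoglobin scavenger receptor, had 0 reads in the 3 sorted libraries and 101, 72.9 and 190 CPM in pull-downs, at least 99.7-fold lower in sorted cells from a floor of 3 reads over the group (edgeR adjusted p = 1.7e-17). Lyve1, a hyaluronan receptor, had 0 reads in sorted cells and 35.8, 26.9 and 53.5 CPM in pull-downs, at least 32.1-fold lower. Pf4, a chemokine of these cells, had 0, 0 and 2.80 CPM in sorted cells and 333, 336 and 289 CPM in pull-downs; it held 2 reads in sorted cells, and the counting interval of the pull-down to sorted ratio was 112 to 3347. These genes stood far apart between the groups.

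Mrc1, the mannose receptor, kept a low level, with 7.33, 15.2 and 7.01 CPM in sorted cells and 53.3, 36.1 and 55.8 CPM in pull-downs (log2 fold change -2.32 ± 0.39). Stab1, a scavenger receptor, had 376 ± 75.5 CPM in sorted cells and 370 ± 29.4 CPM in pull-downs and was not called. Since Stab1 carried much of the list's sum, the sum was 334 to 491 CPM in sorted cells and 1201 to 1308 CPM in pull-downs, and 218 to 401 CPM in sorted-then-pull-down libraries. All 12 genes were higher in pull-downs than in IgG libraries. Mmp9, a gelatinase, had 0 reads in sorted cells and 129, 95.9 and 101 CPM in pull-downs.

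Genes of neurons, astrocytes and oligodendrocytes were also low in sorted cells. In the neuron list 27 of 28 tested members fell and 0 rose, with a median of -4.47; its summed level was 186 to 329 CPM in sorted cells, 6169 to 6743 CPM in pull-downs and 14356 to 21295 CPM in IgG libraries. Nrgn, neurogranin of forebrain neurons, had 49.5, 72.0 and 68.7 CPM in sorted cells and 2575, 2664 and 2378 CPM in pull-downs, with a mean of 6291 CPM in IgG libraries. CPM here is a relative level scaled by TMM-normalised library sizes, and by it these transcripts were lower in HA pull-downs than in IgG libraries. The amounts recovered were not measured. By CPM, 27 neuron genes were lower in pull-downs than in IgG libraries, where 32% of all genes were.

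In the astrocyte list 14 of 16 fell and 1 rose (median -3.85), and in the oligodendrocyte list 14 of 16 fell and 0 rose (median -4.07, or -3.93 with 3 members at their bound). S100b, a calcium-binding protein of astrocytes, had 5.50, 6.92 and 7.01 CPM in sorted cells and 532, 517 and 620 CPM in pull-downs. Mbp, myelin basic protein, had 40.3, 105 and 92.5 CPM in sorted cells and 1654, 1708 and 1992 CPM in pull-downs. Slc1a3, a glutamate transporter, was the astrocyte member that rose, at 255, 277 and 447 CPM in sorted cells and 157, 148 and 169 CPM in pull-downs (1.04 ± 0.23). In the oligodendrocyte precursor list 8 of 9 fell, in the endothelial list 2 of 6 (Cldn5 and Ly6c1) and in the pericyte list 3 of 3, with 0 higher in each. The endothelial share that fell, 33.3%, was no larger than the 38.7% of all genes. Pull-down sums were 1884 to 1998 CPM for the astrocyte list and 4042 to 4585 CPM for the oligodendrocyte list, against 3873 to 4293 CPM and 4754 to 5116 CPM in IgG libraries.

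An independent split came from the sorting-method experiment, whose pull-down and IgG libraries are not used above. There 26.7% of tested genes were higher and 47.8% lower in pull-downs than in IgG libraries. This balance depends on the fit: 35.8% of these calls were higher, and 48.1% when only the groups compared were fitted. Of 2969 genes higher in its pull-downs than in its IgG libraries, 36.3% were higher and 28.5% lower in sorted cells of PBS mice. Of 5232 genes lower in its pull-downs, 24.8% were higher and 54.4% lower in sorted cells. The median log2 fold change was 0.095 in the enriched genes and -0.99 in the depleted genes. Differences in both directions were thus present among genes that pull-downs enriched.

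**Figure D3:**
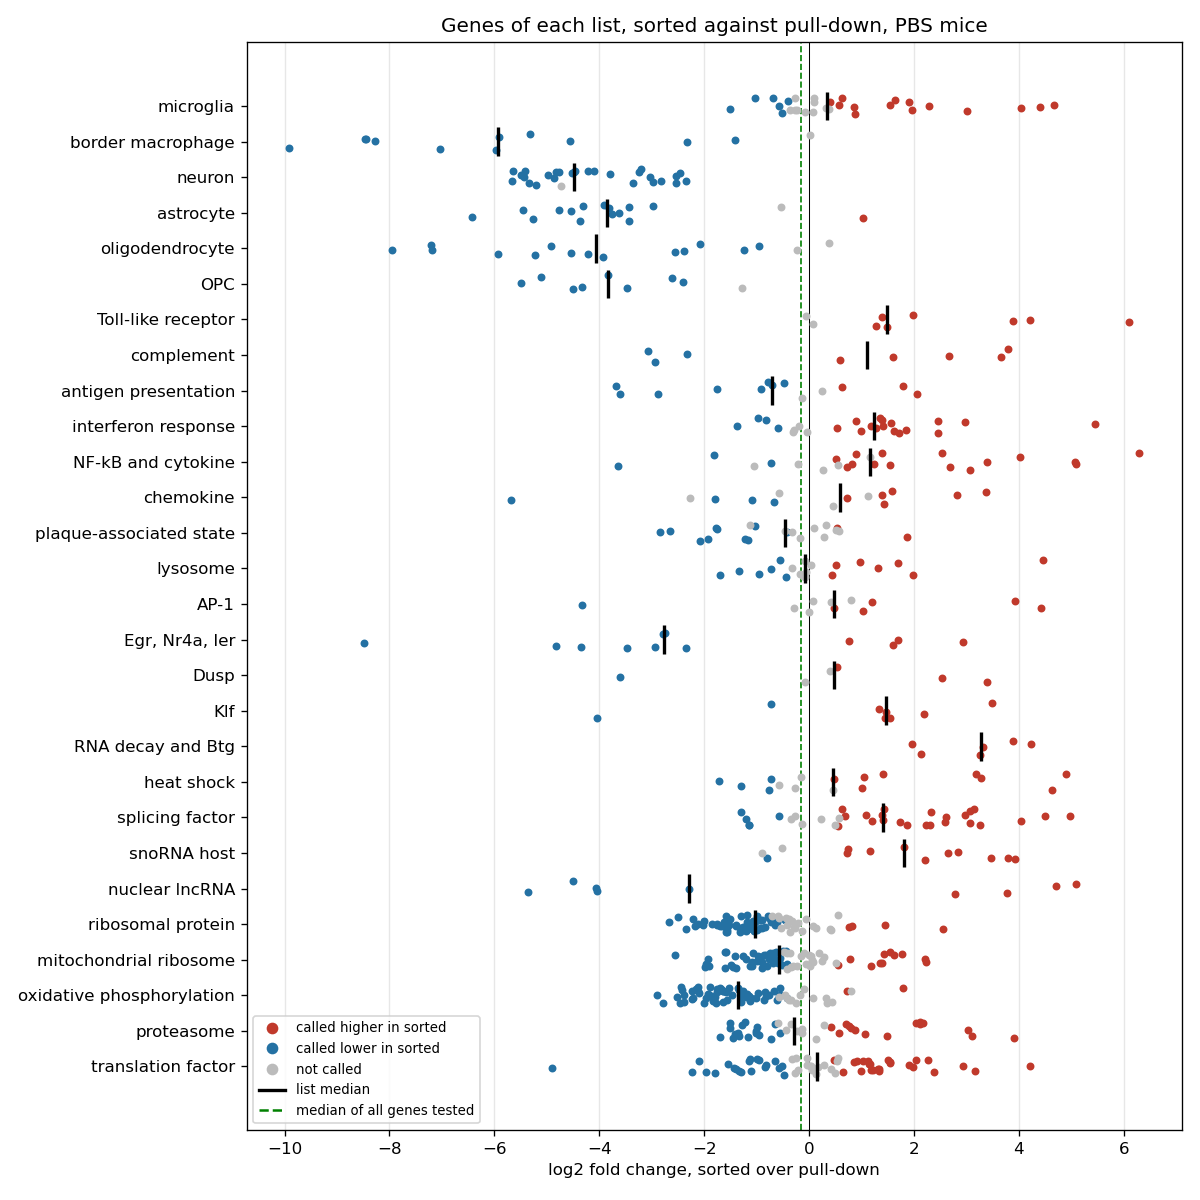
Log2 fold change, sorted over pull-down, of each tested gene (points) in 28 lists (rows), with called genes coloured and list medians as bars; the dashed line is the median of all genes at -0.15. Neuron, astrocyte and oligodendrocyte genes lie to the left (medians -4.47, -3.85 and -4.07), RNA decay and Btg genes to the right (median 3.29), and proteasome and translation factor genes spread to both sides.

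Sensors of innate immunity were among the receptors that rose. In the Toll-like receptor list, 7 of 9 genes were higher in sorted cells and 0 were lower, with a median log2 fold change of 1.49. Tlr3, the sensor of double-stranded RNA, had 119, 108 and 92.5 CPM in sorted cells and 2.19, 1.31 and 0.764 CPM in pull-downs (6.11 ± 0.38, edgeR adjusted p = 4.8e-22). Tlr7, the sensor of single-stranded RNA, had 291, 289 and 367 CPM in sorted cells and 13.9, 11.2 and 26.0 CPM in pull-downs (4.22 ± 0.24), and Tlr4, the LPS receptor, rose by 3.89 ± 0.27. Tlr13, which senses bacterial ribosomal RNA, had 196 ± 40.6 CPM in sorted cells and 203 ± 40.4 CPM in pull-downs, and was not called. In sorted-then-pull-down libraries Tlr7 averaged 372 CPM and Tlr3 64.1 CPM, again far above pull-downs.

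The complement list had 5 higher and 3 lower of 8. C3ar1, a complement receptor, had 334, 266 and 282 CPM in sorted cells and 20.5, 17.7 and 25.2 CPM in pull-downs (3.80 ± 0.23). C4b, a classical pathway component, fell by 3.07 on the log2 scale (SE 0.25), with 15.2 ± 4.87 CPM in sorted cells and 133 ± 10.4 CPM in pull-downs. Antigen presentation genes moved the other way, with 3 higher and 8 lower of 13 (median -0.70). H2-Aa, an MHC class II chain, had 55.9, 26.3 and 60.3 CPM in sorted cells and 568, 600 and 579 CPM in pull-downs, while B2m, the class I light chain, rose by 2.07 ± 0.19. The border macrophage values given above, which were low in sorted cells, moved with the class II genes, and their part in this result was not tested.

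Interferon response genes rose in 16 of 24 cases and fell in 4 (median 1.23). Trim30a, an interferon-inducible gene, had 229, 239 and 269 CPM in sorted cells and 5.84, 6.57 and 3.82 CPM in pull-downs (5.46 ± 0.32). Bst2, a tether of virus particles, fell by 1.36 on the log2 scale (SE 0.18). The list of NF-kB and cytokine genes had 15 higher and 3 lower of 23 (median 1.17). Il1a, the interleukin 1 alpha gene, had 50.4, 58.1 and 32.2 CPM in sorted cells and 0, 1.31 and 0 CPM in pull-downs, where it held 2 reads, with a counting interval of 27.0 to 833 for the ratio. Tnf had 18.3, 13.8 and 11.2 CPM in sorted cells and 0.730, 1.97 and 2.29 CPM in pull-downs (3.07 ± 0.77, edgeR adjusted p = 0.00089). Il1b was low, at 9.23 ± 3.92 CPM in sorted cells and 4.33 ± 0.941 CPM in pull-downs, and was not called (adjusted p = 0.099), though a replicate block called it at 0.035.

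The inhibitor Nfkbia rose by 1.24 ± 0.19. In the chemokine list 6 of 14 genes rose and 4 fell. Ccl3 had 153, 127 and 115 CPM in sorted cells and 11, 11.8 and 15.3 CPM in pull-downs (3.38 ± 0.41), and Ccl4 rose by 1.39 ± 0.25. The chemokine that fell most was Cx3cl1, the neuronal ligand of CX3CR1, with 4.16 CPM in sorted cells and 211 CPM in pull-downs on average. Of genes known from plaque-associated microglia, 2 of 21 rose and 10 fell (median -0.45). Apoe, apolipoprotein E of astrocytes and macrophages, had 1954, 1499 and 1685 CPM in sorted cells and 10828, 9946 and 11538 CPM in pull-downs (-2.65 ± 0.23), and averaged 2967 CPM in IgG libraries. Lyz2, a macrophage lysozyme, fell by 2.84 on the log2 scale (SE 0.20).

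Immediate early genes, which cells induce within minutes of a stimulus, did not move as a block. In the AP-1 list 5 of 11 genes rose and 1 fell. Fos had 486, 515 and 499 CPM in sorted cells and 25.6, 24.3 and 19.1 CPM in pull-downs (log2 fold change 4.43 ± 0.26, edgeR adjusted p = 1.7e-20). Jun had 1215, 1383 and 1187 CPM in sorted cells and 87.7, 78.8 and 81.0 CPM in pull-downs (3.93 ± 0.18). Their libraries did not overlap between groups. Atf3, a stress-induced member, had 35.1 ± 3.91 CPM in sorted cells and 26.6 ± 3.14 CPM in pull-downs and was not called (adjusted p = 0.19), with a value of -0.080 when the count filter was dropped.

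The RNA decay and Btg list rose in full, with 6 of 6 higher (median 3.29). Zfp36, which directs decay of cytokine mRNA, had 622, 623 and 576 CPM in sorted cells and 29.9, 38.1 and 27.5 CPM in pull-downs (4.24 ± 0.22, edgeR adjusted p = 4.1e-26). Of the Klf factors 6 of 8 rose, among them Klf4, at 3.49 ± 0.30, and Klf2, at 1.47 ± 0.32. Of the Dusp phosphatases 3 of 6 rose, with Dusp1 at 128, 161 and 143 CPM in sorted cells and 13.1, 15.1 and 12.2 CPM in pull-downs (3.39 ± 0.25). Egr1 rose by 2.93 ± 0.21.

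In the Egr, Nr4a and Ier list 4 of 12 rose and 8 fell. The members that fell include Npas4, a factor of active neurons, with 0 reads in sorted cells and 35.8, 63.1 and 33.6 CPM in pull-downs, at least 37.9-fold lower. Nr4a1 had 11 ± 6.38 CPM in sorted cells and 113 ± 19.7 CPM in pull-downs, and Klf9 fell by 4.05 on the log2 scale (SE 0.30). In pull-downs Npas4, Nr4a1 and Klf9 averaged 44.2, 113 and 148 CPM, below their IgG means of 88.3, 171 and 366 CPM. Averages in sorted-then-pull-down libraries were 261 CPM for Fos, 484 CPM for Jun, 666 CPM for Zfp36 and 76.6 CPM for Dusp1, each above its pull-down mean.

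Promoters of the early genes were searched for motifs, and 4 that hold a match are shown to give the letters behind the counts. Of 43 early genes tested, 37 had an upstream window (250 bases before the first start site listed, RefSeq, GRCm38.p6), and 20 of the 37 hold TGACG, the core of the cyclic AMP response element, on either strand (54.1%), against 17.9% of 27025 promoters. It is in 9 of the 20 windows whose gene rose and in 11 of the 17 whose gene did not. The full site TGACGTCA, which contains TGACG on both strands, is in 3 of the 37 (8.11%), against 1.62% of all. The AP-1 site TGACTCA is in 0 of the 37, against 4.43% of all, and TATAAA in 10.8%, against 13%. The CArG box is in 2.70%, against 1.40% of all, and the NF-kB site in 10.8%, against 4.78%. Motifs were searched on both strands, and these shares carry no test. Below are the 4 risers with a match and the highest log2 fold change, with each TGACG or its complement in capitals. Fos lies at chr12:85473640-85473889 on the plus strand, Klf4 at chr4:55532476-55532725 on the minus strand, Dusp1 at chr17:26508473-26508722 on the minus strand and Btg1 at chr10:96616751-96617000 on the plus strand.
Fos: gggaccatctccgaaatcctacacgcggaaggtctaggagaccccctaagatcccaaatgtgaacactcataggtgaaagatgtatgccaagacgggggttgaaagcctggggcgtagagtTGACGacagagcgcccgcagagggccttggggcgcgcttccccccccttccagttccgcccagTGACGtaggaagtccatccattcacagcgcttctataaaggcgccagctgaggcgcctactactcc
Klf4: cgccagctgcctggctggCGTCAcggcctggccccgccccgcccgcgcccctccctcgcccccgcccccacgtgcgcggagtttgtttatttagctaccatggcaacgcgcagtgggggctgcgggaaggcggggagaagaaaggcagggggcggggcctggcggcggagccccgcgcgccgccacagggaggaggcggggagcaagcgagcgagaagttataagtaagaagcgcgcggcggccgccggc
Dusp1: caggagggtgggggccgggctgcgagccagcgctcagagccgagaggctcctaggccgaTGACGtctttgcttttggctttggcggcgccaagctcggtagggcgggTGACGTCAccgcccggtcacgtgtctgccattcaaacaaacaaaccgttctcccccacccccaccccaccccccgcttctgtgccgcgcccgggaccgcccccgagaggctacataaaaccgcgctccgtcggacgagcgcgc
Btg1: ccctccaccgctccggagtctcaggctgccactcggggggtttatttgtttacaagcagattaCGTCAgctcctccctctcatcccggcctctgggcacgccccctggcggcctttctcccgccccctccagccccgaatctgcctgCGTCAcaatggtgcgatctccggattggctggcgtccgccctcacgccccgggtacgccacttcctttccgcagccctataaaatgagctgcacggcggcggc
A match describes the letters and is no evidence of binding.

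The list of nuclear long non-coding RNAs split, with 4 higher and 5 lower of 9 (median -2.28). Malat1, an abundant nuclear RNA, had 764, 952 and 935 CPM in sorted cells and 82.5, 50.6 and 60.4 CPM in pull-downs (3.78 ± 0.24, edgeR adjusted p = 4.1e-18), Neat1 of the paraspeckles rose by 2.79 ± 0.23, and Kcnq1ot1, an imprinted antisense RNA, by 5.08 ± 0.33. In sorted-then-pull-down libraries Malat1 averaged 157 CPM and Kcnq1ot1 6.81 CPM, well under their sorted means of 884 and 126 CPM. Sorted libraries were higher than sorted-then-pull-down libraries by 2.50 for Malat1 (adjusted p = 9.4e-11) and 3.96 for Kcnq1ot1 (adjusted p = 3.2e-12) on the log2 scale. Tug1 was the fourth member that rose, at 4.71 on the log2 scale. Meg3, Miat, Mirg, Snhg11 and Peg13 fell, and Meg3, an imprinted RNA, stood at 4.64 ± 3.26 CPM in sorted cells and 102 ± 27.0 CPM in pull-downs.

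Host genes of small nucleolar RNAs rose in 10 of 13 cases and fell in 1 (median 1.81), Snhg1 by 3.92 ± 0.48 and Gas5 by 1.81 ± 0.30. Splicing factors rose in 23 of 34 cases and fell in 5 (median 1.40). Clk1, a kinase of splicing factors, had 355, 381 and 376 CPM in sorted cells and 12.4, 10.5 and 12.2 CPM in pull-downs (4.97 ± 0.22), and Srsf7 rose by 4.04 ± 0.22. Srsf9, of the same SR protein family, fell by 1.30 on the log2 scale (SE 0.18), so the family did not move together. Heat shock genes rose in 8 of 16 cases and fell in 4: Hspa1a had 166, 66.4 and 65.9 CPM in sorted cells and 5.11, 5.91 and 0.764 CPM in pull-downs, but shares reads with its near copy Hspa1b, whereas Hspa5, the chaperone of the endoplasmic reticulum, rose by 3.19 ± 0.21.

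Genes of the cytoplasmic ribosome and of oxidative phosphorylation were mostly lower in sorted cells. Of cytoplasmic ribosomal protein genes 54 of 77 fell and 4 rose (median -1.03), and their sum was 14464 to 14680 CPM in sorted cells and 39300 to 42202 CPM in pull-downs. Rpl14 had 508, 580 and 569 CPM in sorted cells and 3010, 3083 and 3299 CPM in pull-downs (-2.50 ± 0.19), while Rpl22l1, the paralogue of the tagged gene, rose by 2.56 ± 0.43. Of oxidative phosphorylation genes 59 of 74 fell and 2 rose (median -1.35). Their sum was 7747 to 8419 CPM in sorted cells, 22543 to 23550 CPM in pull-downs and 18813 to 21372 CPM in IgG libraries, and pull-downs were higher than IgG libraries for 22 of the 74 and lower for 20. These values rest on TMM. Over all genes the median log2 fold change of pull-down over IgG was -0.016 with TMM and -0.45 with total-count scaling. The TMM factors of library size were 0.92 to 0.94 in pull-downs and 1.17 to 1.32 in IgG libraries. With total-count scaling the order of the sums turns round, and IgG libraries are the higher. The part of the IgG background in the result was not tested. Uqcr11, a complex III subunit, had 114, 88.6 and 119 CPM in sorted cells and 788, 742 and 872 CPM in pull-downs, while Uqcrb of the same complex rose by 1.80 ± 0.39. Members of a complex therefore differed in direction.

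Proteasome genes split into 15 higher and 17 lower of 40, with Psme4 at 3.90 ± 0.31 and Psmb6 at -1.70 ± 0.18, and translation factors into 25 higher and 21 lower of 62. Lysosomal genes split into 7 higher and 6 lower of 20 (median -0.080, or 0.13 with total-count scaling). The shares higher and lower were 37.5% and 42.5% for proteasome, 40.3% and 33.9% for translation factor and 35% and 30% for lysosomal genes. They lie near the 33.2% and 38.7% of all genes. Lamp2 had 254, 235 and 259 CPM in sorted cells and 12.4, 7.23 and 14.5 CPM in pull-downs (4.46 ± 0.22), but its paralogue Lamp1 fell by 0.56 on the log2 scale (SE 0.17). Glycolysis genes fell in 11 of 18 cases and rose in 3, with mean sums of 1990 CPM in sorted cells, 3645 CPM in pull-downs and 5266 CPM in IgG libraries. Sterol synthesis genes fell in 8 of 16 and rose in 1. A set chosen after its values were seen, the 226 tested genes named Zfp and a number, had 141 higher and 37 lower, with a median of 1.28; they encode zinc finger proteins, and this is a description with no test.

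Mitochondrial ribosome genes fell in 41 of 71 cases and rose in 11, circadian genes fell in 8 of 15 and rose in 4, and Rgs genes fell in 4 of 7 and rose in 3, with Rgs1, a regulator of G protein signalling, at 3.83 and the clock repressor Nr1d2 at 3.74. Core histone and linker histone genes rose in 9 of 20 cases and fell in 7, and Hist1h1e had 38.5, 67.8 and 51.9 CPM in sorted cells and 0, 0.657 and 3.06 CPM in pull-downs. Stress and arrest genes rose in 5 of 15 and fell in 4, and replication genes rose in 3 of 6 and fell in 1. Of the histone list 45% rose and 35% fell, and of the stress list 33.3% and 26.7%, against 33.2% and 38.7% of all genes. Of markers of blood cells, 1 of 4 neutrophil and monocyte genes rose (Plac8) and 1 fell (Mmp9), Cd79b of B cells rose by 0.86, and Hbb-b1 and Hbb-bs, near-identical globin copies, fell among 6 globin genes; leaving out a library ended the calls of Plac8 and both globins, and dropping the filter that of Cd79b. Of ependymal and choroid genes 3 of 4 fell, with Ttr at 139 ± 69.9 CPM in sorted cells and 556 ± 97.0 CPM in pull-downs.

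The 10 genes that rose most among well-expressed genes were Zfp715, Spopl, Lysmd3, Uba6, Zfp518a, Zfp738, Dpy19l4, Zfp160, Ddx60 and Sap25. Uba6, a ubiquitin-activating enzyme, had 18.3, 19.4 and 19.6 CPM in sorted cells and 0 reads in pull-downs, at least 26.6-fold higher, and Spopl was at least 32.7-fold higher. Sap25 had 190, 230 and 252 CPM in sorted cells and 0.730, 3.94 and 2.29 CPM in pull-downs. In pull-downs Sap25 averaged 2.32 CPM, below the 6.38 CPM of IgG libraries, where Uba6 averaged 6.08 CPM. The 10 genes that fell most were Cd163, Mmp9, Mmp24, S100a16, Lrrc73, Npas4, Cd209f, Pf4, Fcna and Lyve1, of which Mmp24 was at least 51.9-fold lower and S100a16 at least 45.7-fold lower.

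The comparison was also made in mice that share no library with it. In LPS-injected mice of the same genotype (2.5 mg/kg, sampled after 3 h), 87.0% of the 3798 genes higher in sorted cells of PBS mice were called higher and 91.6% of the 4428 lower genes were called lower, where 33.1% of all tested genes were called higher and 43% lower. Seen from the LPS mice, 87.2% of genes called higher and 82.4% of those called lower had the same call in PBS mice. In the sorting-method experiment, 82.7% of the PBS mice's higher genes tested there and 87.8% of the lower ones had the same call after the digest (background 31.6% and 41.1%). Without the digest the shares were 81.7% and 87.4% (background 31.9% and 40.9%), and both settings share the pull-down libraries. The share with the opposite call was 0.25% to 0.64%. Between LPS and PBS mice, 367 genes (3.21%) differed in the sorted over pull-down change itself.

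Named genes can be set side by side in these mice. P2ry12 had log2 fold changes of 4.04 in PBS mice, 4.22 in LPS mice, 4.17 after the digest and 3.95 without it, and C1qa had -1.02, -0.91, -0.60 and -0.61. Tmem119 was -0.28, -0.69, 0.06 and 0.15. Among early genes, Fos was 4.43, 4.56, 7.01 and 6.56, Atf3 0.41, -0.15, 4.99 and 3.50, and Tnf 3.07, 2.39, 7.81 and 7.20 in that order. The tables of the experiments were normalised separately, so the gap between them was not tested.

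**Figure D4:**
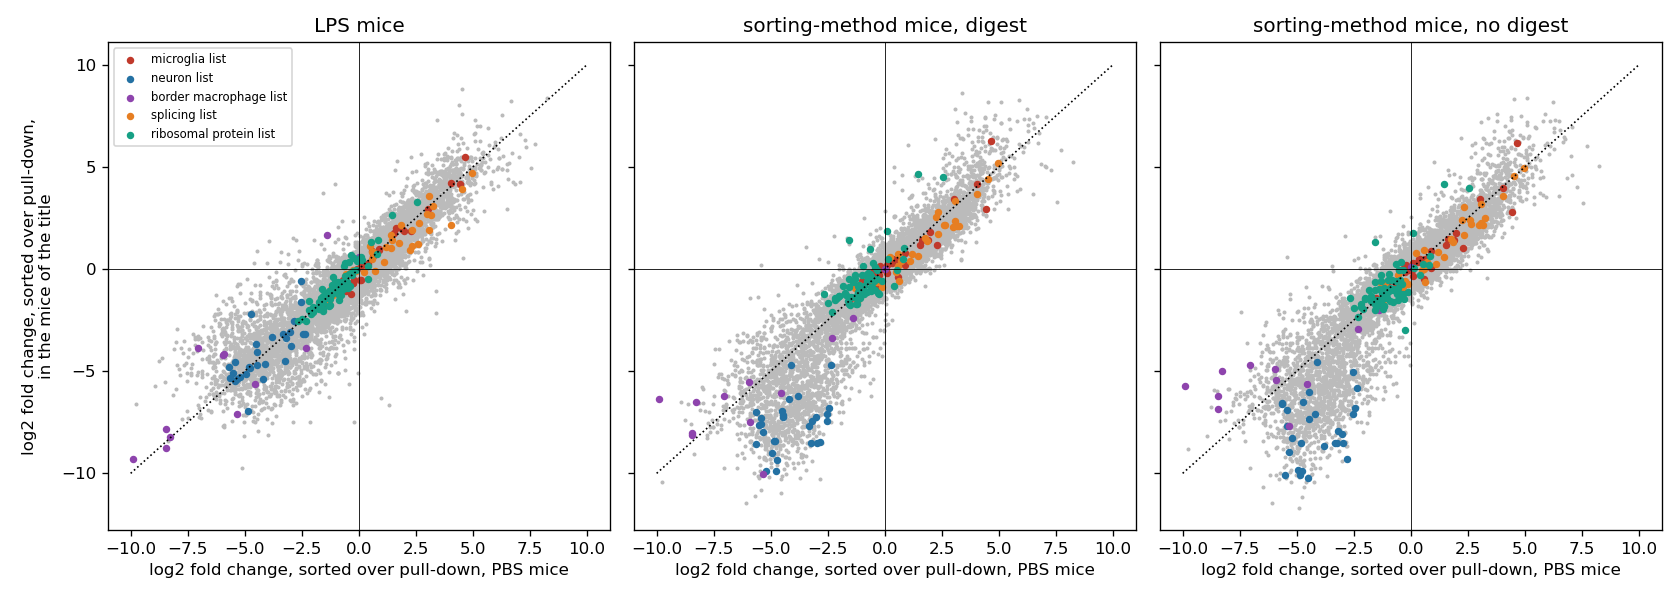
Log2 fold change, sorted over pull-down, in PBS mice (horizontal axis) against LPS mice, sorting-method mice with digest and sorting-method mice without digest (vertical axes), each point a gene, with 5 lists coloured and the dotted line marking equality. P2ry12, at 4.04 in PBS mice, sits at 4.22, 4.17 and 3.95 on the vertical axes, and neuron genes lie lower in the sorting-method panels than in PBS mice (list medians -7.53 and -7.99 against -4.47).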

How the data were processed

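Read counts per gene over exons were deposited by the authors as raw counts, with bcl2fastq, HISAT 0.1.5 and HOMER on mm9 named per the submitters' processing notes. Annotation, strand setting, and duplicate or UMI handling are not given in the sources used here. The LPS table holds 24421 genes and 28 libraries, and that of the sorting-method experiment holds 24411 genes and 15 libraries. Another table was not used here.

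Genes with enough reads (filterByExpr, minimum 10) were fitted in edgeR 4.0.16 (R 4.3.3; TMM, quasi-likelihood) over all groups of a table, without a replicate block. After group means were removed, same-numbered sorted and pull-down libraries correlated at 0.018 to 0.065 and differently numbered ones at -0.046 to 0.0087. Same-numbered values were all higher, but all values were small. The labels do not tie numbers to animals, so numbers were not taken as pairs. Calls needed an adjusted p (Benjamini-Hochberg) under 0.05, and glmTreat tested against a 2-fold change. The alternatives were size factors and Wald test of DESeq2 1.42.0, total-count scaling, no filter, thinning, fewer groups, a block and leave-one-out. The code was tested on simulated data.

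Named genes included the 10 largest and 10 smallest log2 fold changes among called genes of at least 10 CPM with no overlap. Predicted genes (Gm, Rik, LOC or accession-like symbols), microRNAs and small nucleolar RNAs were skipped in that ranking. The 3 smallest p per list and a set of markers were also named. Others are list members or genes chosen after their values were seen. Members and lists were chosen with earlier results of these data known. A gene among them is not reported here.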

Additional observations from a re-analysis of the deposited data

Results flagged for a closer look

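Of 179 named genes, 12 had a difference between sorted and pull-down libraries that itself differed between LPS and PBS mice, by the edgeR interaction term with Benjamini-Hochberg adjustment; over all genes 367 (3.21%) did. The PBS groups of 3 are too small for a test of single libraries.

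The log2 difference, LPS minus PBS, was 2.40 for C4b (adjusted p = 5.4e-07), 2.19 for Kcnq1ot1 (adjusted p = 0.046), 2.36 for Klf9 (adjusted p = 3.7e-05) and 1.12 for Tlr7 (adjusted p = 0.041). For Klf9 the log2 fold change of sorted over pull-down was -1.69 in LPS mice and -4.05 in PBS mice, and for C4b it was -0.67 in LPS mice and -3.07 in PBS mice. Kcnq1ot1 had 7.27 in LPS mice and 5.08 in PBS mice, and Tlr7 5.34 and 4.22.

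The difference was -1.14 for Hnrnpa2b1 (adjusted p = 0.0021), -1.48 for Jun (adjusted p = 5.5e-06), -1.06 for Junb (adjusted p = 0.0021), -1.75 for Mx2 (adjusted p = 0.01), -2.36 for Socs3 (adjusted p = 4.4e-08), -1.89 for Srsf7 (adjusted p = 1.6e-06), -1.20 for Tef (adjusted p = 0.011) and -1.61 for Zfp36 (adjusted p = 2.3e-05). Socs3, a feedback inhibitor of cytokine signals, had 0.32 in LPS mice and 2.68 in PBS mice, and Srsf7 2.15 and 4.04. Jun had 2.46 in LPS mice and 3.93 in PBS mice, Zfp36 2.63 and 4.24, Junb 0.14 and 1.19, Mx2 1.23 and 2.97, and Hnrnpa2b1 1.92 and 3.07, so these were higher in sorted cells by less in LPS mice. Tef, a circadian output factor, was lower in sorted cells by more in LPS mice, at -2.62 against -1.42.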

How the results depend on the processing

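Of 179 named genes, 163 kept direction and call under every alternative in which they were tested. Some genes did not pass the count filter in some alternatives and have no value there. The count of called genes ranged from 7611 to 7985 on leaving out a replicate (4518 to 4807 beyond 2-fold). With a replicate block, whose pairing the labels do not state, the count was 8303 (4904). It was 8278 and 8124 with DESeq2 size factors and test, 8161 with total-count scaling, 7657 fitting only these groups, 6341 thinned to equal depth and 9293 with no filter, where 32.2% were higher. DESeq2 called 3618 beyond 2-fold, thinning 3500. With no filter the median log2 fold change over all genes also moved, from -0.15 to -0.48, and the no-filter values below include that shift. The LPS against PBS difference gave 367 calls, 552 fitting only the groups compared and 196 to 437 on leaving out a replicate; it was more than 1.5 times lower without LPS pull-down 1 (222) or 2 (244), LPS sorted 3 (196), PBS pull-down 1 (240) or 3 (222), and PBS sorted 1 (224), 2 (211) or 3 (229). The other comparisons gave, on leaving out a replicate, 2686 to 3339 (sorted against sorted-then-pull-down), 5279 to 5775 (sorted-then-pull-down against pull-down), 6873 to 7229 (pull-down against IgG), 8191 to 8566 (LPS mice) and 8021 to 8474 (sorting-method experiment). Sign reversals came without the filter for Atf3 (-0.080), Csf1r (-0.12), Stab1 (-0.47, then called) and the medians of the microglia (-0.14), AP-1 (-0.017), cell cycle (-0.35), Dusp (-0.012), heat shock (-0.023), histone (-0.10) and translation factor (-0.34) lists; with total-count scaling for Cst3 (0.14), Tlr13 (0.16) and the lysosome (0.13) and stress (0.17) lists; when thinned, for nuclear lncRNA (3.14), Rgs (0.88) and stress (0.033); and fitting only these groups for nuclear lncRNA (2.75) and Rgs (0.76), where fewer members were tested. Stab1, at 0.02 and not called, was -0.022 and -0.021 with DESeq2 size factors and test, -0.018 fitting only these groups and -9.6e-05 with the replicate block, and leaving out a replicate moved it from -0.13 to 0.14 and Tlr13 from -0.23 to 0.10. Without 1 sorted library the border macrophage median ranged to -5.29 (library 1) and -7.70 (library 3). Calls of Hbb-b1, Hbb-bs (near-identical copies), Mcm7, Plac8 and Rgs5 were lost on leaving out libraries, and dropping the filter called Cst3, Stab1 and Tlr13 lower. Low genes are limited by the depth of 668194 counts in the shallowest sorted library.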
